A study of Mus musculus with 2 samples.

Results

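The genes described here are 8 mouse heat shock genes, Hspa1a, Hspa1b, Hspa8, Hsph1, Dnajb1, Hspb1, Hsp90aa1 and Hsf1, taken by symbol from a feature table of 55415 genes, in which each had 1 row. They were chosen by symbol with their measured levels in these libraries in view, so those levels are given as a description. The cells were mESC, stem cells from the early mouse embryo that stay pluripotent as they divide, some of which pass through a state that resembles the 2-cell embryo and is called 2C-like. The line carried a GFP reporter driven by the MERVL promoter, taken from an endogenous retrovirus that is active in the 2C-like state, and the far-red nuclear label H2B-mIFP. One single-cell library was labelled MERVL GFP positive and 1 was labelled MERVL GFP negative, and the study set out to learn what becomes of 2C-like cells. No treatment, passage or number of cultures was given for either library. With 1 library per group there was no replicate, no test was made, and the library and the reporter group cannot be told apart.

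The positive library held 4596 cells after filtering, with a median of 29554.5 UMIs (counted molecules) and 2.56% mitochondrial UMIs per cell. The negative library held 3832 cells, with medians of 39099.5 UMIs and 1.60%. Levels are CPM, UMIs scaled to 1000000 UMIs of the same cells. Shares of cells were taken after each cell was thinned at random to 10000 UMIs, which left 4402 and 3824 cells. The Zscan4 family, whose genes mark the 2C-like state, was at 483 CPM in the positive library and 0.812 CPM in the negative library, and GFP was at 205 and 0.454 CPM. The 13 pluripotency markers summed to 15880 and 15409 CPM. Markers of primitive endoderm summed to 917 and 383 CPM and fibroblast markers to 25.3 and 8.005 CPM, and their part in the results was not tested except where a value without such cells is given. The libraries shared 3 cell barcodes.

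Heat shock proteins are chaperones that keep other proteins folded. The transcription factor HSF1 is held inactive in unstressed cells and, on heat or protein damage, binds heat shock elements, alternating repeats of nGAAn, in the promoters of its targets. The strongly inducible Hsp70 is made from Hspa1a and Hspa1b, which are also among the first genes transcribed when the mouse embryonic genome is activated at the 2-cell stage. Hspa8 encodes the constitutive partner Hsc70, Dnajb1 the Hsp40 co-chaperone that delivers substrates to Hsp70, Hsph1 the Hsp110 exchange factor, Hsp90aa1 the inducible form of cytosolic Hsp90, and Hspb1 a small heat shock protein that holds unfolded proteins.

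Hspa1a (chr17:34969190-34972156, minus strand, GRCm38) and Hspa1b (chr17:34956436-34959238, minus strand) are neighbours of 1 exon each, 9951 bases apart. Their coding sequences were identical at 1918 of 1926 aligned bases, or 99.6%, whereas the stretches after the stop codon, of 810 and 643 bases, matched at 368 of 614 aligned bases, or 59.9%. How the counting treated reads that fit both genes was not given, so the split between them is uncertain and their sum, called Hspa1 here, is the main value. Hspa1a also overlaps Gm20481 on the other strand, and whether counting used strand was not given. The remaining genes lie at chr9:40800984-40810087 (Hspa8, plus strand, with Snord14c, Snord14d and Snord14e inside it), chr5:149614287-149636376 (Hsph1, minus), chr8:83608193-83612653 (Dnajb1, plus), chr5:135887919-135889563 (Hspb1, plus), chr12:110690605-110702728 (Hsp90aa1, minus) and chr15:76477422-76501913 (Hsf1, plus).

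The upstream sequences of the paralogs are shown because both genes increased with Zscan4. RefSeq promoter windows (GRCm38.p6, 250 bases before to 50 after the start site) were found for 5 of the 8 genes, and those of Hspa1a and Hspa1b were identical at 296 of 300 bases. Counted from 1 at the 5′ end of the window, with the base of Hspa1a first, the differences were C44T, T47C, T249G and C276T. The 250 bases before the start site are given 5′ to 3′, with the differing bases in capitals, from chr17:34972157-34972406 and chr17:34959239-34959488, both on the minus strand.
Hspa1a: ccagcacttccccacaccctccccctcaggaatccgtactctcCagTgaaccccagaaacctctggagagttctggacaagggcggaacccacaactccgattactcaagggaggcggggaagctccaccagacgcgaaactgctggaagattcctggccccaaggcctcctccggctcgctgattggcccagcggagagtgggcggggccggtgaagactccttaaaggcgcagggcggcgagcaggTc
Hspa1b: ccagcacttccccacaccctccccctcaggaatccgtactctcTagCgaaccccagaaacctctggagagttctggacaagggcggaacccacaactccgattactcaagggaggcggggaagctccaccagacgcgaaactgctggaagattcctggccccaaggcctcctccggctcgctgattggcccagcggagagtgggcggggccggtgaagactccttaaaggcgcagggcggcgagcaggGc

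Heat shock element letters were searched on both strands as 3 units (GAANNTTCNNGAA or TTCNNGAANNTTC), which 198 of 32851 promoter windows held (0.603%), and as 2 units (GAANNTTC or TTCNNGAA), which 4946 held (15.1%) and which lie within every 3-unit match. Hspa1a and Hspa1b each held 1 match of 2 units, GAAGATTC, at position 147 of the window. Hspb1 held 2 such matches upstream of its start, shown in capitals from chr5:135887792-135887839, plus strand. Hsph1 held the 3-unit match, from chr5:149636288-149636300, minus strand, which begins 36 or 15 bases after its start site, depending on the window. Upstream it held a separate match of 2 units, TTCTCGAA, at position 218 or 197 of the window. The 2 windows of Dnajb1 held none of these letters. A match describes the letters and shows no binding.
Hspb1: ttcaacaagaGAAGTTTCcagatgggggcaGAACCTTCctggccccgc
Hsph1: TTCTGGAAAGTTC

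Inducible Hsp70 transcript was low in both libraries and higher in the positive one. Hspa1a had 1392 UMIs, or 10.1 CPM, in the positive library and 54 UMIs, or 0.345 CPM, in the negative library. Hspa1b had 884 UMIs, or 6.39 CPM, and 69 UMIs, or 0.441 CPM. Summed, they reached 16.5 CPM (95% Poisson interval 15.8 to 17.1) with the reporter and 0.786 CPM (0.654 to 0.938) without it, a ratio of 20.9 (17.4 to 25.3). On the log2 scale of CPM + 1 the difference was 3.29. All intervals cover counting error only, and many UMIs of these genes came from few cells.

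Of the 8 genes, 7 had at least 10 CPM in a library and 50 UMIs in total, and 1 of them, Hspa1a, was past a ratio of 2. Hspa1b, at 6.39 CPM, was left out by this filter and had a log2 difference of 2.36. None of the 7 was past a ratio of 2 in the other direction. Over all genes that passed, 7.01% were higher and 0.995% were lower in the positive library by this rule, a split that the scaling moved: it was 4.75% and 3.27% under TMM and 4.77% and 3.24% under median of ratios, which both scale a library by the bulk of its genes and not by its total. Leaving out the 2 cells described below took Hspa1a under the 10 CPM filter, so that 0 of 6 were past a ratio of 2, and lowered the difference for Hspa1 to 2.93. Scaling by TMM or by median of ratios also removed the call, with 6 of the 8 genes left by the filter and 0 past a ratio of 2. Hspa1a then fell below 10 CPM, but its log2 difference stayed at 2.87 with either scaling. That of Hspa1 stayed at 3.08 with TMM and 3.09 with the other scaling.

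**Figure D1:**
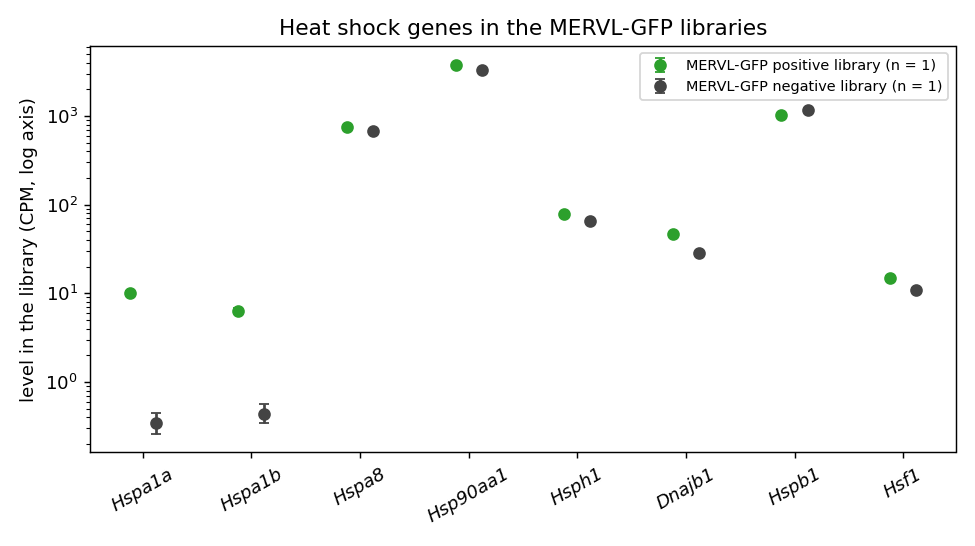
Level of each heat shock gene in the 2 libraries, as CPM on a log axis; points are single libraries (n = 1 each) and bars are 95% Poisson intervals for counting error. Hspa1a and Hspa1b sit between 6.39 and 10.1 CPM in the positive library and below 1 CPM in the negative library, while the other 6 genes lie close together in both.

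Inducible Hsp70 UMIs were counted in a minority of cells. After thinning, 384 of 4402 cells of the positive library, or 8.72% (exact binomial interval 7.91 to 9.60), had an Hspa1a or Hspa1b UMI, against 28 of 3824 cells, or 0.732% (0.487 to 1.06), of the negative library, where the median cell was deeper. Without thinning the shares were 19.5% and 3.08%. At least 2 UMIs were seen in 82 cells, or 1.86%, of the positive library and in 0 cells of the negative library, which allows a share of up to 0.0785%. A share due to free RNA within the positive library was not estimated, and its part in these shares was not tested. At this depth 1 UMI stands for 100 CPM, so cells without a UMI may hold the transcript.

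Among cells of the positive library the counted UMIs were concentrated. The variance of thinned Hspa1 UMIs over cells was 34.4 times their mean, against 0.993 times in the negative library, where no cell had more than 1. Without the 2 cells above 100 UMIs the ratio in the positive library was 6.39. The 44 cells with the most held 51.7% of the 2207 Hspa1 UMIs of the 4402 cells, and the first 2 of them held 24.01%. Hspa1a was present in 25.4% (19.7 to 31.8) of the 213 cells with Hspa1b and in 4.08% (3.50 to 4.73) of the others, so both were seen in 54 cells. In the negative library 13 cells had Hspa1a, 15 had Hspa1b and 0 had both. Shared reads of near-identical genes could also place both in 1 cell, and this was not tested.

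To place the genes along the 2C-like state, the cells of the positive library were classed by thinned Zscan4 UMIs, with 1423 cells at 0, 1492 at 1 to 2, 820 at 3 to 9 and 667 at 10 or more. These are ranges of 1 measure and not cell types, and 220 cells had 8 to 11 Zscan4 UMIs, near the highest boundary. From the lowest to the highest class GFP rose from 105 to 447 CPM and the 2C markers other than Zscan4 from 94.2 to 1739.9 CPM. Fibroblast markers went from 20.5 to 35.2 CPM, immediate early genes from 383 to 565 CPM and G2/M genes from 3513 to 4265 CPM, and their part in the differences along Zscan4 was not tested. The median cell had 166 and 86 thinned UMIs of pluripotency markers in the lowest and highest class. Primitive endoderm markers were at 957 and 655 CPM in these classes, with a median of 3 thinned UMIs in both and a 90th percentile over cells of 29.8 and 11. The median depth fell from 33154 to 20941 UMIs and the median mitochondrial share went from 2.35% to 3.11%.

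Hspa1 increased with Zscan4. It was at 5.02 CPM (4.41 to 5.70) in the class at 0, 10.01 CPM at 1 to 2, 23.2 CPM at 3 to 9 and 59.5 CPM (55.7 to 63.5) at 10 or more. Each of the middle classes held 1 of the 2 extreme cells, and without them these classes were at 5.36 and 10.8 CPM. The ratio of the highest to the lowest class was 11.8 (10.3 to 13.7), a log2 difference of 3.33, and it was 3.27 among cells with 15000 to 45000 UMIs, 3.38 among cells with at most 5% mitochondrial UMIs and 3.43 without the cells that had 5 or more UMIs of endoderm markers. Without the cells that had 5 or more Hspa1 UMIs it was 2.35. In another thinning draw, which put an extreme cell in the class at 0, it was 2.58, and 3.49 in that draw without the 2 extreme cells. Hspa1a went from 2.32 to 38.9 CPM and Hspa1b from 2.698 to 20.6 CPM.

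The share of cells with Hspa1 was 5.06% (3.98 to 6.33) at 0 Zscan4 UMIs, 4.49% at 1 to 2, 9.27% at 3 to 9 and 25.3% (22.1 to 28.8) at 10 or more. The intervals of the first 2 classes overlapped. Dividing the highest class gave 17.4% (14.0 to 21.3) of 436 cells at 10 to 29 Zscan4 UMIs, 38.4% (31.7 to 45.5) of 203 cells at 30 to 99 and 53.6% (33.9 to 72.5) of 28 cells at 100 or more. The levels of Hspa1 in these 3 ranges were 28.1, 117 and 268 CPM. Even in that last range, Hspa1 was seen in 15 of the 28 cells and not in the others.

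**Figure D2:**
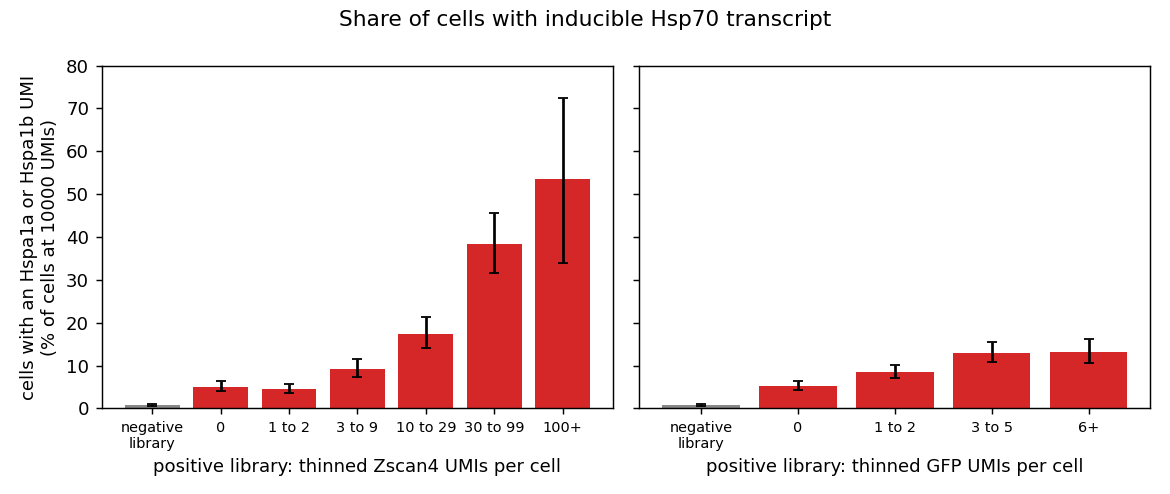
Share of cells with at least 1 Hspa1a or Hspa1b UMI after thinning to 10000 UMIs, in percent, for the negative library (gray) and for ranges of thinned Zscan4 UMIs (left) and GFP UMIs (right) per cell of the positive library (red); bars start at 0 and error bars are 95% exact binomial intervals. The share climbs to 53.6% along Zscan4 and reaches 13.3% along GFP.

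Cells of the positive library without a thinned Zscan4 UMI were still above the negative library for Hspa1, at 5.02 against 0.787 CPM, with shares of 5.06% and 0.732%. Their median depths were 33154 and, over the thinned cells at 0 Zscan4 in the negative library, 39135 UMIs. These positive-library cells kept 47.5 CPM of Zscan4 and 105 CPM of GFP before thinning, and the part of free RNA in these levels was not tested. Over all genes 3.72% were higher in these cells than in the negative library by a ratio of 2 and 0.459% were lower, against 2.14% and 1.51% under TMM and 2.01% and 1.92% under median of ratios. Of the 8 genes, 6 passed the filter in that comparison and 0 were past the ratio. The other 2 were Hspa1a and Hspa1b, under 10 CPM in both groups, with ratios of CPM of 6.73 (4.82 to 9.49) and 6.11 (4.53 to 8.31).

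Dnajb1, the Hsp40 that works with Hsp70, was the other gene that increased along Zscan4 by more than a ratio of 2. Between the libraries it differed by 0.68 on the log2 scale, at 46.2 CPM (45.1 to 47.4) with the reporter and 28.5 CPM (27.7 to 29.3) without. Across the Zscan4 classes it was at 35.2, 40.6, 52.8 and 88.2 CPM, and its share of cells went from 28.0% to 51.0%. In the divided highest class it reached 74.7, 119.5 and 123.7 CPM, the last 2 within each other's intervals. The log2 difference between the highest and the lowest class was 1.30, and 1.22 when cells with 5 or more Hspa1 UMIs were left out.

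Hspa8, the constitutive Hsc70, was abundant in nearly every cell and varied little. It was at 753 CPM in the positive library and 679.8 CPM in the negative library, and was seen in 98.7% and 98.5% of thinned cells. Across the Zscan4 classes it was at 707, 738, 769 and 926 CPM, with median thinned UMIs of 6, 7, 7 and 8. The log2 difference between the highest and the lowest class was 0.39, small beside that of Hspa1 and in the same direction.

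Hsp90aa1 and Hspb1 ran the other way along Zscan4. Hsp90aa1, the inducible cytosolic Hsp90, was at 4071, 3907, 3547 and 3211 CPM, and its median over cells fell from 37 to 29 thinned UMIs. Hspb1, the small heat shock protein, was at 1135, 1061, 971 and 806 CPM, with medians of 10, 10, 9 and 7. The log2 differences between the highest and the lowest class were -0.34 and -0.49. Between the libraries Hsp90aa1 was at 3808 and 3289 CPM (positive first) and Hspb1 at 1037 and 1155 CPM. Members of the same stress response differed in direction within 1 library.

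Hsph1, the Hsp110, and Hsf1, the regulator, showed no ordered change with Zscan4. Hsph1 was at 82.1, 79.9, 74.0 and 79.3 CPM and Hsf1 at 15.2, 15.1, 14.5 and 14.9 CPM, with log2 differences of -0.05 and -0.03 whose sign changed between settings. The ratio interval was 0.905 to 1.03 for Hsph1 and 0.840 to 1.14 for Hsf1. In the libraries Hsph1 was at 79.4 and 64.9 CPM and Hsf1 at 15.0 and 10.9 CPM, higher in the positive one. The level of Hsf1 transcript says nothing of the activity of its protein.

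All 8 genes passed the filter in the Zscan4 comparison, and 3 were past a ratio of 2 upwards (Hspa1a, Hspa1b and Dnajb1) and 0 downwards. Over all genes that passed, 9.18% were higher and 3.99% lower. Between the libraries the small differences depended on the scaling: TMM and median of ratios took the median over all genes from 0.14 to -0.16. Hspa8 then went from 0.15 to -0.15 and -0.14, Hsp90aa1 from 0.21 to -0.08 under both, and Hsph1 from 0.29 to about 0. Dnajb1 (0.39 and 0.40), Hsf1 (0.15 under both) and Hspb1 (-0.45 under both) kept their directions. Along Zscan4 the directions of Hspa1a, Hspa1b, Dnajb1, Hspa8, Hsp90aa1 and Hspb1 were the same in every setting run.

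**Figure D3:**
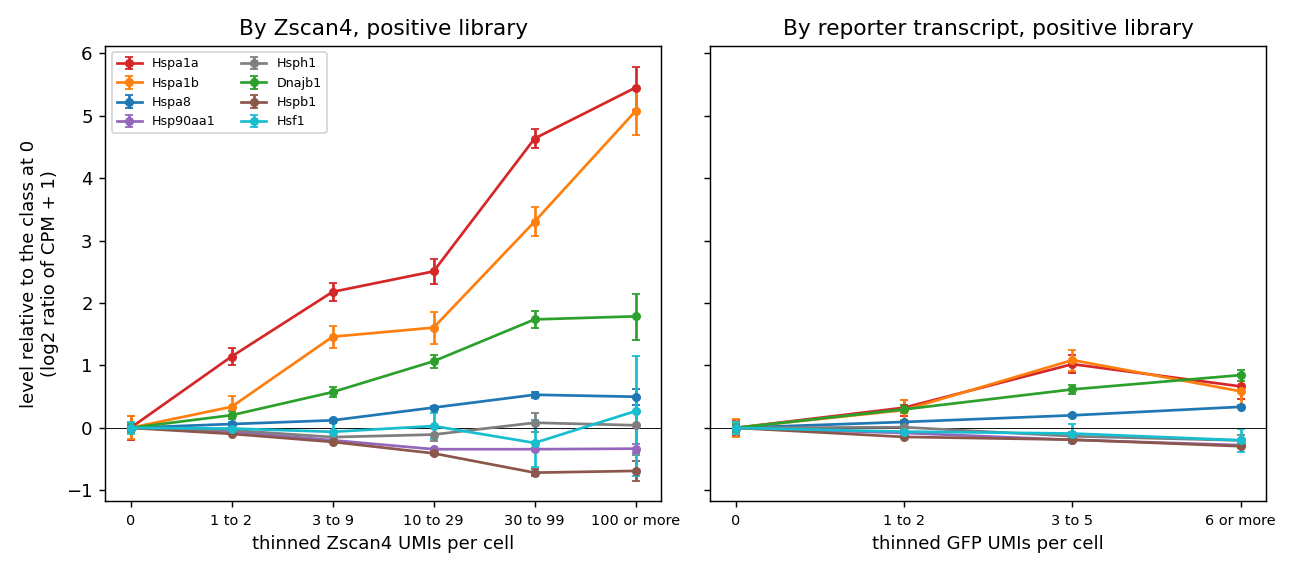
Level of each heat shock gene relative to the class with 0 UMIs, as log2 ratio of CPM + 1, along thinned Zscan4 UMIs (left) and thinned GFP UMIs (right) of cells in the positive library; bars are 95% Poisson intervals of the level. Along Zscan4 the lines for Hspa1a, Hspa1b and Dnajb1 climb, Hspa8 climbs a little, Hsp90aa1 and Hspb1 descend, and Hsph1 and Hsf1 stay near 0, while the lines along GFP stay closer together.

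The reporter transcript separated Hspa1 less than Zscan4 did. With 1679 cells at 0 thinned GFP UMIs, 1350 at 1 to 2, 792 at 3 to 5 and 581 at 6 or more, Hspa1 was at 11.8, 15.1, 26.6 and 19.5 CPM, a log2 difference of 0.67 between the ends. The 2 extreme cells had 0 and 1 GFP UMIs, and without them the difference was 1.46. The shares of cells were 5.24% (4.22 to 6.42), 8.59%, 13.01% and 13.3% (10.6 to 16.3). The shares of the upper 2 classes overlapped in their intervals, while the level was lower in the highest class (17.3 to 21.9 CPM) than in the one below it (24.5 to 28.8 CPM).

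Dnajb1, Hspa8, Hsp90aa1 and Hspb1 kept along GFP the directions they had along Zscan4. Dnajb1 was at 36.9, 45.5, 57.1 and 67.0 CPM, a log2 difference of 0.85, and Hspa8 at 702, 749, 807 and 886 CPM, a difference of 0.34. Hsp90aa1 went from 4053 to 3346 CPM and Hspb1 from 1121 to 914 CPM. Hsph1 went from 81.7 to 71.0 CPM and Hsf1 from 15.6 to 13.5 CPM, a log2 difference of -0.20 each. Of 7 genes that passed the filter 0 were past a ratio of 2 in either direction, against 5.04% of all genes upwards and 2.25% downwards. Hspa1a was past it when the 2 cells were left out. From the lowest to the highest GFP class the Zscan4 family went from 182 to 1145 CPM, pluripotency markers from 16717 to 13813 CPM, fibroblast markers from 21.6 to 31.5 CPM and G2/M genes from 3556 to 3940 CPM. The median depth fell from 32565 to 24470 UMIs, and the part of these measures in the differences along GFP was not tested.

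Hspa1 was also set out by GFP within each range of Zscan4. Among the 667 cells with 10 or more Zscan4 UMIs, the 72 without GFP had 43.4 CPM and the 211 with 6 or more had 42.9 CPM, and the highest level, 97.9 CPM, was in the 197 cells with 3 to 5. That level rested on few cells: 9 of the 197 had 5 or more Hspa1 UMIs and held 278 of the 431 UMIs. Without cells of 5 or more Hspa1 UMIs the 4 levels were 25.9 CPM (18.97 to 34.6), 27.7 CPM, 36.01 CPM (30.5 to 42.2) and 27.4 CPM (22.8 to 32.8), with no ordered change from the lowest to the highest GFP class. The shares of cells in these Zscan4-high cells were 11.1% (4.92 to 20.7), 31.6%, 28.9% and 21.3% (16.002 to 27.5) from the lowest to the highest GFP class. Among the cells with 0 Zscan4 UMIs, Hspa1 was at 4.29, 5.77, 5.60 and 7.99 CPM, with intervals that overlapped. Without the 2 extreme cells it was at 4.59, 5.14, 7.26 and 7.29 CPM at 1 to 2 Zscan4 UMIs, where each level was above the one before it and the intervals of neighbouring classes overlapped. At 3 to 9 Zscan4 UMIs it was at 12.5, 7.03, 13.6 and 10.95 CPM without them, in no order. With the 2 cells included, the class with 1 to 2 GFP UMIs in the first of these ranges was at 19.5 CPM and the class without GFP in the other at 69.8 CPM.

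Cells with 5 or more thinned Hspa1 UMIs numbered 26 in the positive library, or 0.591% of its cells, and 0 in the negative library. They are the end of a range: 6 cells had 4 UMIs, just below the boundary, and 6 had 5. Of the 26 cells, 24, or 92.3%, had 10 or more Zscan4 UMIs, a class that held 15.2% of cells. Their thinned Zscan4 UMIs ran from 1 to 192 with a median of 50.5, and their Hspa1 UMIs from 5 to 127 with a median of 9.5. GFP was less uniform in them, with a median of 3 UMIs and 3 cells at 0. With boundaries of 3 or 10 Hspa1 UMIs there were 46 and 13 such cells, of which 39 and 11 were in the highest Zscan4 class.

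**Figure D4:**
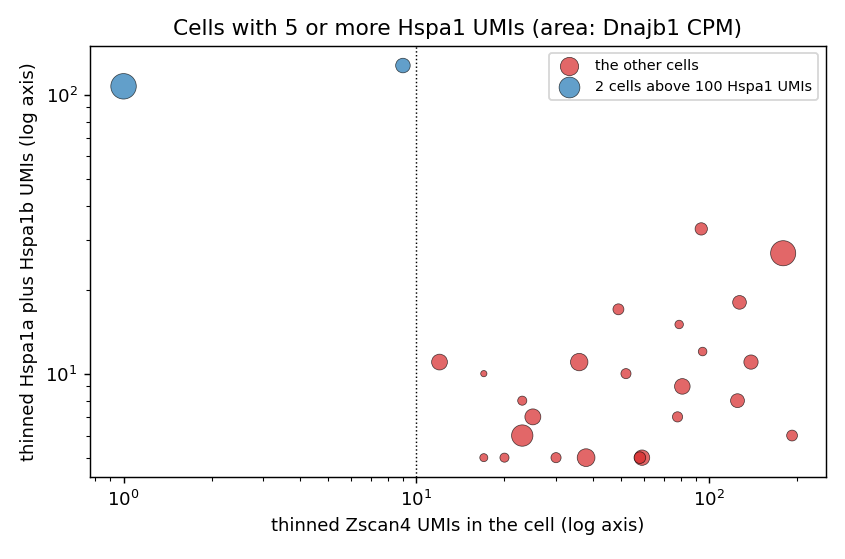
The 26 cells with at least 5 thinned Hspa1a plus Hspa1b UMIs, by thinned Zscan4 UMIs and thinned Hspa1 UMIs (both log axes); point area grows with Dnajb1 CPM and the dotted line marks 10 Zscan4 UMIs. The 2 cells with 107 and 127 Hspa1 UMIs (blue) lie left of the line, with 1 and 9 Zscan4 UMIs, and the other 24 (red) lie right of it.

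The 24 high cells of the highest Zscan4 class were set beside cells of that class with fewer Hspa1 UMIs or none. Hspa1 itself set the groups and is left aside. In the 24 cells Dnajb1 was at 241 CPM (199 to 290), against 110 CPM (98.2 to 122) in the 145 cells with 1 to 4 Hspa1 UMIs and 76.8 CPM (71.9 to 81.9) in the 498 with 0. The log2 difference between the outer groups was 1.64. Hspa8 was at 1099, 1020.4 and 895 CPM in the same order, Hsp90aa1 at 4052, 3301 and 3156 CPM, Hsph1 at 108, 84.4 and 76.9 CPM, and Hspb1 at 625, 671 and 848 CPM. Hsf1 rested on 2 UMIs in the 24 cells, a ratio of 0.300 (0.0360 to 1.10). Of these genes Dnajb1 was raised most, and Hsp90aa1, which was lower in Zscan4-high cells as a whole, was higher in the summed cells with much Hspa1. In single cells among the 24, Hsp90aa1 ran from 1667 to 9033 CPM. The cell at 9033 CPM also held 58 of the 510 Hspa8 UMIs.

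Of the 6 genes that did not set these classes, Dnajb1 was past a ratio of 2 upwards and Hsf1, on its 2 UMIs, downwards, where 5.04% of all genes were higher and 5.90% lower. The 61 other heat shock and chaperone genes summed to 17879 CPM in the 24 cells and 19231 CPM in the 498, a lower sum with much Hspa1. Of the 46 that passed the filter, Dnajb9, an Hsp40 of the endoplasmic reticulum, was past a ratio of 2 upwards at 258 and 102 CPM, and Hspa4l, on 2 UMIs, was downwards. Other transcripts moved with Hspa1 in these cells. Zscan4 was at 6187, 4056 and 2522 CPM from the high cells to those at 0, immediate early genes at 907, 749 and 505 CPM, and pluripotency markers at 8535, 9522 and 10702 CPM. Primitive endoderm markers were at 349 CPM (297 to 407), 409 CPM and 730 CPM (715 to 746) in the same order. Their part in the differences was not tested.

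The 2 cells with over 100 Hspa1 UMIs, singled out after their values were seen, differed from the other high cells and from each other. They held 303 and 227 Hspa1 UMIs in depths of 25029 and 22239 UMIs, or 12106 and 10207 CPM, and their mitochondrial shares were 2.46% and 2.01%. Hspa8 was at 2837 and 3103 CPM in the first and the second cell, Hsp90aa1 at 7471 and 13669.7 CPM, Dnajb1 at 320 and 1124 CPM and Hspb1 at 559 and 1124 CPM. Hsph1 rested on 5 UMIs in each. Summed over both, Hspa8 (2962 CPM), Hsp90aa1 (10388 CPM), Dnajb1 (698 CPM, 481 to 980) and Hsph1 (212 CPM, 101 to 389) were above the 498 Zscan4-high cells without Hspa1, and the interval of Hspb1 (825 CPM, 587 to 1128) held their level. The other chaperone genes summed to 32115 CPM over both. The mitochondrial chaperonin gene Hspe1 was at 1638 CPM in the first cell and 12231 CPM in the second, and its partner Hspd1 at 1239 and 4047 CPM. Before thinning 20 and 2 Zscan4 UMIs and 2 and 7 GFP UMIs were counted in them. These values rest on 2 cells, and the second accounts for most of the chaperonin transcripts.

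**Figure D5:**
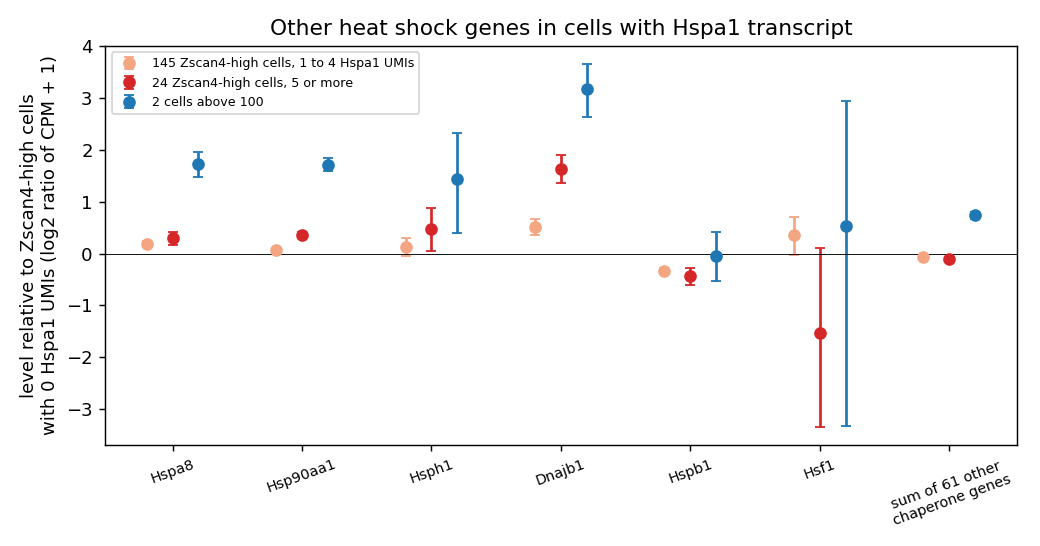
Levels of 6 heat shock genes and of the sum of 61 other chaperone genes, relative to Zscan4-high cells with 0 Hspa1 UMIs, as log2 ratio of CPM + 1; bars are 95% Poisson intervals. In the 24 Zscan4-high cells with 5 or more Hspa1 UMIs (red) Dnajb1 is at 1.64, and in the 2 cells above 100 (blue) Hspa8, Hsp90aa1, Hsph1, Dnajb1 and the chaperone sum are all above 0; the wide Hsf1 bars rest on 2 UMIs and 1 UMI.

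Cells with many primitive endoderm marker UMIs had other levels of some of these genes. In the 508 cells of the positive library with 20 or more marker UMIs, Hsp90aa1 was at 2585 CPM (2560 to 2611), against 3960 CPM (3947 to 3973) in the 2919 cells with 0 to 4. In the negative library the levels were 1876 CPM (1846 to 1907) in 188 cells and 3357 CPM (3347 to 3366) in 3495 cells. The cells between, with 5 to 19 marker UMIs, did not lie between these levels. With the reporter their Hsp90aa1 was at 4046 CPM (4022 to 4069), and without it at 3526 CPM (3478 to 3574), above the cells with 0 to 4 in both libraries.

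Hsph1 was at 73.8, 78.5 and 116 CPM from the fewest to the most marker UMIs in the positive library and at 62.7, 65.2 and 105 CPM in the negative library. Dnajb1 was at 43.2, 50.9 and 55.5 CPM and at 28.1, 30.4 and 35.0 CPM in the same order. Hspa8 differed in direction between the libraries, at 742, 775 and 788 CPM in the positive one and 687, 675 and 562 CPM in the negative one. Pluripotency markers were at 16647, 16037 and 11466 CPM in the positive library and 15617, 15896 and 11309 CPM in the negative library, and their part in these differences was not tested.

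Hspa1 was lowest in the positive-library cells with the most of these markers. It was at 17.9 CPM in the cells with 0 to 4 endoderm marker UMIs, 16.03 CPM (14.6 to 17.6) in those with 5 to 19 and 5.89 CPM (4.75 to 7.24) in those with 20 or more. Both extreme cells were in the first class, which was at 12.2 CPM (11.5 to 12.9) without them, below the class with 5 to 19. The shares of cells with Hspa1 were 8.50%, 11.4% and 4.92%, and the Zscan4 family was at 493, 517 and 264 CPM in the same classes, whose part was not tested. In the negative library Hspa1 was at 0.723, 1.01 and 1.77 CPM, on 6 UMIs in the middle class and 14 in the highest. Without cells of 5 or more marker UMIs, which took out 33.7% and 8.60% of thinned cells, the log2 difference of Hspa1 between the libraries was 3.49, and 2.99 without the 2 extreme cells as well. With the marker cells alone left out, that of Dnajb1 was 0.61.

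The other chaperone genes, 61 listed by family, give the setting. Of these, 46 passed the filter between the libraries, with 2 past a ratio of 2 upwards and 0 downwards. Over all genes 7.01% were higher and 0.995% lower by this rule. The median log2 difference of the list was 0.02, beside 0.14 over all genes. The 2 were Dnajb9, at 42.8 and 13.1 CPM, and Hspa2, an Hsp70 best known from the testis, at 15.4 and 5.05 CPM. Along Zscan4 the median was -0.23, beside -0.10 over all genes, with 11 genes above 0 and 35 below. Past a ratio of 2 were 2 of the 46 upwards and 1 downwards, where 9.18% of all genes were higher and 3.99% lower. Dnajb9 went from 24.1 to 131 CPM and Hspa2 from 11.1 to 28.2 CPM. Bag2, a co-chaperone of Hsp70, went from 12.3 to 4.44 CPM and was the 1 gene past a ratio of 2 downwards.

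Among the rest of the list, Dnaja1, a cytosolic Hsp40, had a log2 difference along Zscan4 of 0.58 and Dnajb4 of 0.37. Serpinh1, a collagen chaperone, had -0.77, Hspe1 -0.85 and Ppid, an Hsp90 co-chaperone, -0.96. The differences were 3.59 for Hspa1a and 2.55 for Hspa1b, beside 2.40 for Dnajb9, and without the cells of 5 or more Hspa1 UMIs those of Hspa1a and Hspa1b were 2.43 and 1.91.

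Genes with a pattern like that of Hspa1 were ranked by Pearson's r of log thinned counts across the 4402 cells of the positive library, among 7834 genes. The 5 highest were Eif1ad6 (0.32), Eif1ad4 (0.31), Eif1ad7 (0.31), Gm18983 (0.30) and Gm6494 (0.29). The Eif1ad genes are near-identical copies, so their counts are uncertain as single values. The r of Hspa1 with the Zscan4 family was 0.30 and with GFP 0.12. For Dnajb1 these were 0.23 and 0.15, for Hspa8 0.16 and 0.14, for Hsp90aa1 -0.17 and -0.16, and for Hspb1 -0.24 and -0.14. In the negative library the highest r with Hspa1 was 0.08 (Tlnrd1, 3824 cells), too weak in such sparse counts to be a finding. The cells share a library and 1 thinned depth, and these values are descriptions.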

How the data were processed

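Single mESC were profiled in 1 MERVL GFP positive and 1 MERVL GFP negative library. The authors deposited a sparse matrix of raw counts for each library, and these are taken as UMIs since cell barcodes of 16 bases are given. FastQC 0.11.2, Trim Galore 0.6.4, STAR 2.7.6a and the build mm10 are named in the submitters' processing notes; the counting step and cell calling are not given in the sources used here, and the labels' extraction text describes a total RNA kit. Of the feature IDs 93.98% were in GENCODE M21 (GRCm38), used for positions.

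Cells with at least 1000 UMIs, 500 genes and at most 20% mitochondrial UMIs were kept, which removed 7 and 0 cells. Doublets were not removed, and an alternative left out the 90 and 77 cells above 2 times the median UMIs. Counts were summed over cells, scaled to CPM and compared as log2 of CPM + 1; the size rule was 10 CPM in a group, 50 UMIs in total and a ratio of 2. Cells were thinned to 10000 UMIs, which left out 194 and 8. Intervals are exact Poisson, binomial (Clopper-Pearson) or conditional ratio intervals at 95%; a share of 0 allows 3 counts.

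The genes and lists were chosen with earlier results of these data known. Named genes were all 8 and listed chaperone genes past a ratio of 2 or else the 3 most changed in each direction. The 5 genes most like Hspa1 were named for the positive library, and only the highest for the negative library. The steps were tested on simulated data. Alternatives changed scaling (TMM from edgeR 4.0.16, median of ratios), pseudocount, filters, thinning and classes. R 4.3.3 and Python 3.11.15 were used, with scipy 1.17.1 and numpy 2.4.6.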

Additional observations from a re-analysis of the deposited data

How the results depend on the processing

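No paired analysis was possible because only 1 library stands for each group, and for the same reason no replicate could be left out. Of 328 other values, for single genes, 235 stayed within their interval and 93 moved outside it. The sign changed with the scaling for Hspa8, Hsp90aa1 and Hsph1 between the libraries, for these and Dnajb1 between cells at 0 Zscan4 and the negative library, and with several settings for Hsph1 and Hsf1 along Zscan4; all of these were below a ratio of 2. The count of genes past a ratio of 2 between libraries, 1 as reported, was 0 under TMM and median of ratios. It was also 0 without the 2 cells above 100 Hspa1 UMIs. In these settings Hspa1a fell below 10 CPM. Its log2 difference was still 2.87 with either scaling and 2.61 without the 2 cells. The count was 2 with a ratio of 1.5 or no low filter, where 17.6% and 3.53% of all genes were higher. The library difference of Hspa1, 3.29, was 3.70 as a mean of each cell's CPM, 4.22 with a pseudocount of 0.1, 2.93 without the 2 cells and 2.99 without them and the endoderm marker cells (count 0). Along Zscan4 its difference, 3.33, was 3.54 with a pseudocount of 0.1, 2.58 with another thinning draw, in which an extreme cell fell to 0 Zscan4 UMIs, 3.08 with a highest class of 5 or more and 2.35 without cells of 5 or more Hspa1 UMIs. With the other draw and without the 2 cells it was 3.49. Along GFP the count, 0, was 1 with another draw, 1 without the 2 cells, 1 with both and 2 at a ratio of 1.5. Over all genes 5.15%, 5.06%, 5.15% and 8.43% were higher in these settings. The Hspa1 difference along GFP, 0.67, was 0.38 at 15000 to 45000 UMIs and 0.95 with a highest class of 3 or more. With another draw it was 1.65, with or without the 2 cells. In the main draw it was 1.46 without the 2 cells and 1.19 without cells of 5 or more Hspa1 UMIs. The share of positive-library cells, 8.72%, was 5.68% at 5000 UMIs, 19.5% not thinned and 1.86% at 2 or more UMIs; that of the negative library, 0.732%, was 3.08% not thinned and 0% at 2 or more. The share of cells with 5 or more Hspa1 UMIs, 0.591%, was 1.04% at 3 or more and 0.295% at 10 or more. The settings chosen after seeing the data were those on the 2 cells, on cells with 5 or more Hspa1 UMIs, on the boundaries of 3 and 10, and the Hspa1 difference along GFP. At 10000 UMIs 1 UMI stands for 100 CPM, so cells without a UMI may hold the transcript.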
